A study of Drosophila melanogaster with 6 samples.

Results

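Ensheathing glia of the Drosophila brain were studied as 252 cell barcodes out of 120836 in 6 single-cell libraries. A barcode was counted as ensheathing glia when it met a rule on unique molecular identifiers (UMIs), the molecule counts of droplet sequencing. It needed at least 500 UMIs with at most 20% of them mitochondrial, and at least 2 of the 3 marker genes axo, CG9657 and Eaat2 detected. It also needed at least 1 UMI of the glial genes repo or nrv2, none of nSyb (neurons), alrm (astrocytes) or wrapper (cortex glia), and at most 1 of elav (neurons). The members were thus chosen by measured values, the UMIs of these genes, so the markers and all other differences in level between the members and the remaining barcodes are given as description and were not tested. The genotype of the flies was not used in the choice.

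Ensheathing glia are flat cells that wrap the neuropil, the regions of synapses, and the large axon tracts of the fly brain. They separate synaptic regions from cell bodies, carry transporters and ion channels at this border, and engulf debris of injured axons through the receptor Draper (drpr). Astrocyte-like glia, by contrast, send fine processes into the neuropil and clear transmitters there, while cortex glia enclose the cell bodies of neurons.

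The study compared brains of flies labelled elav-tau P251L KI, a knock-in that alters the protein made from tau, which binds microtubules and is the fly counterpart of human MAPT (tau KI below), with brains of control flies labelled elav-GAL4(x)/+. GAL4 driven by elav is a transgenic activator expressed mainly in neurons, and the labels do not say how the knock-in allele was combined with it. There were 3 libraries per genotype, each a pool of brains from 20 males and 20 females, dissociated with trypsin and sequenced from the 3' end of transcripts in droplets. Fly age is not given in the sources used here, and nothing states that the pools came from separate crosses, so p-values measure the spread between these pools.

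Depth was uneven within both genotypes. The tau KI libraries yielded 30214, 39504 and 8023 barcodes that passed the UMI and mitochondrial limits, and the control libraries 8574, 27439 and 7082 (replicates 1 to 3). The ensheathing glia among them held 109970, 75305 and 10272 UMIs in tau KI and 21639, 106935 and 35541 UMIs in controls. Tau KI replicate 3 stood apart, with only 6 members. It also differed from the other tau KI libraries in single genes: lncRNA:CR40469, a long noncoding RNA, was at 22.8, 37.8 and 0.290 CPM (UMIs per 1000000 UMIs) in the neuron set of the tau KI libraries and at 0.144, 0.181 and 0.404 CPM in that of the controls, so that replicate 3 lay among the controls. Between 0.201% and 1.40% of barcode sequences over 500 UMIs recurred in a second library, and no ensheathing glia barcode did.

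The 252 barcodes carried the glial genes repo, nrv2 and Gs2, and their other transcripts set them apart from the astrocyte set more than from the cortex set. The comparison sets were barcodes with alrm and Gat (232, astrocyte set), with at least 2 of wrapper, Cyp4g15 and zyd (52, cortex set) and with nSyb and elav (54561, neuron set). The marker axo, a secreted neurexin-like protein of glia, was at 2394 CPM in ensheathing glia, summed over all libraries. It was at 287 CPM in the astrocyte set, 1017 CPM in the cortex set and 15.5 CPM in the neuron set. CG9657, a solute transporter of the SLC5A family, was at 1001 CPM in ensheathing glia, against 54.5 CPM in the astrocyte set and 81.4 CPM in the cortex set. Eaat2, an amino acid transporter, was at 456 CPM in ensheathing glia, 32.7 CPM in the astrocyte set and 67.8 CPM in the cortex set. All 3 markers were therefore highest in the barcodes they had been used to choose.

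Genes outside the rule that stood highest over the remaining barcodes included several of ion and solute transport. Of 1682 features with at least 30 UMIs in ensheathing glia and at least 1 UMI in 5 libraries, 313 were over 5 times as high as in all other barcodes. The highest ratio belonged to Ugt35B1, a UDP-glycosyltransferase (ratio 134, with 364 CPM), followed by List, a transporter of the SLC6 family (122, 765 CPM), and the potassium channel gene Ork1 (111, 342 CPM). The chloride channel gene ClC-a (73.4), the receptor gene N of the Notch pathway (70.4), its target E(spl)mbeta-HLH (69.9), ana, a glycoprotein secreted by glia (96.2), the lipocalin GLaz (74.9) and the ion exchanger zyd (62.0) were also among the 30 highest ratios. Most of these were low in the astrocyte set but not in the cortex set: Ork1 was at 298 CPM, ClC-a at 637 CPM and N at 854 CPM in the cortex set. CG31100 (ratio 85.2) had no UMI in the cortex set, whose 52 barcodes limit what a count of 0 there can show.

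Hemocyte and muscle markers were low in ensheathing glia, while genes listed for astrocytes, cortex glia, surface glia and fat body were detected. The 6 astrocyte genes summed to 827, 691 and 1752 CPM in tau KI ensheathing glia and 1433, 973 and 1773 CPM in controls. They stood lower than in the astrocyte set, which had been chosen by alrm and Gat, and alrm was 0 in members by the rule. Of the astrocyte genes, the GABA transporter Gat was at 398 CPM in ensheathing glia and 5072 CPM in the astrocyte set, Eaat1 at 500.5 CPM in ensheathing glia and 4883 CPM in the astrocyte set, and wun2 at 25.02 CPM in ensheathing glia and 647 CPM in the astrocyte set. The cortex genes were present: zyd was at 865 CPM in ensheathing glia and 1316 CPM in the cortex set, and the cytochrome P450 gene Cyp4g15 at 375 CPM in ensheathing glia and 1139 CPM in the cortex set. A cortex glial cell in which no wrapper UMI was read would meet the rule if it also carried 2 of the 3 markers, and its share among the members was not tested. Of 7 surface glia genes 5 had UMIs, and the list summed to 555, 491 and 487 CPM in tau KI ensheathing glia and 1202, 645 and 591 CPM in controls, against 55.4 to 82.9 CPM in the neuron sets. Most of this sum came from the collagen gene vkg (350.3 CPM) and the receptor gene moody (203 CPM), while Mdr65 and gem had no UMI. Of 5 fat body genes 3 had UMIs: the lipoprotein gene apolpp was at 1159 CPM in ensheathing glia, a ratio of 28.2 over all other barcodes, and at 2862 CPM in the cortex set, Yp1 was at 409 CPM, and AkhR had 1 UMI. The fat body genes Fbp1 and Lsp2, the hemocyte genes NimC1 and He and all 5 muscle genes examined had no UMI in any member. The part of surface glia or fat body RNA in the members was not tested.

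**Figure D1:**
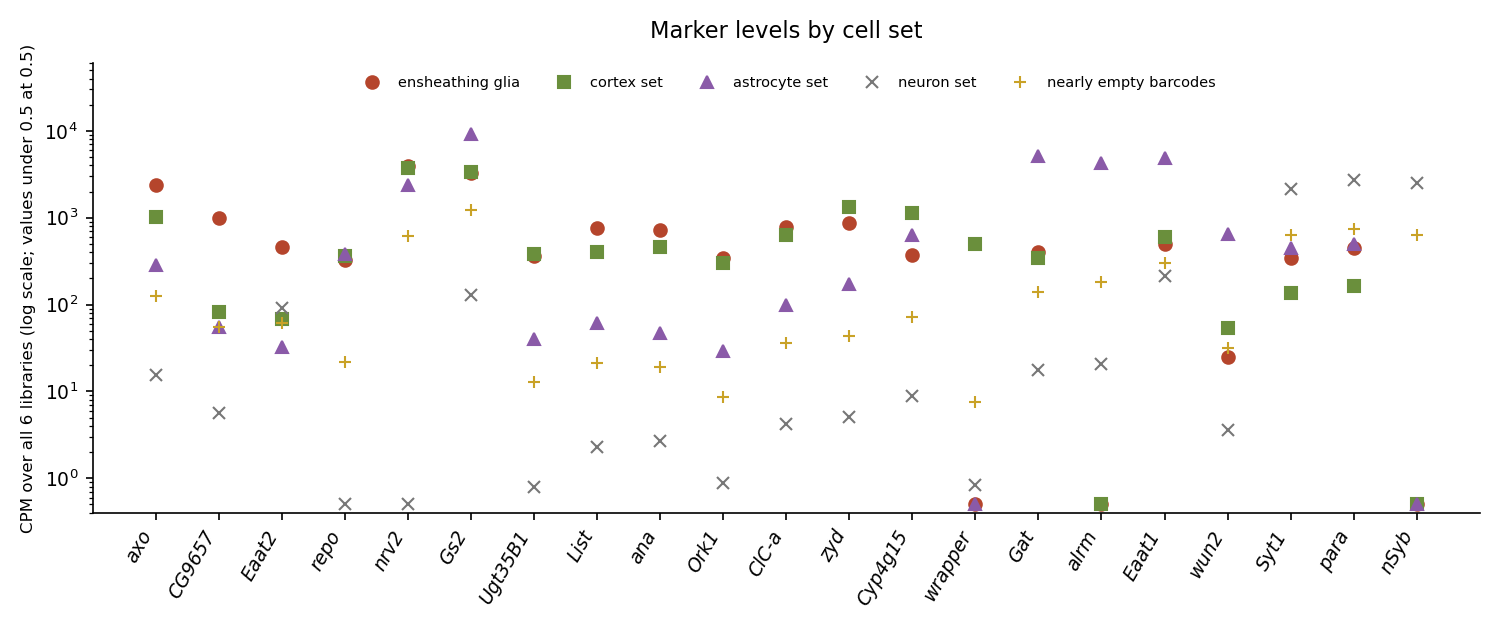
Level of 21 genes in ensheathing glia, in the cortex, astrocyte and neuron sets and in nearly empty barcodes, in CPM over all 6 libraries on a log axis, with values under 0.5 drawn at 0.5. The 3 chosen markers stand highest in ensheathing glia, List, ana, Ork1 and ClC-a are high in the cortex set too, and zyd and Ugt35B1 are highest in the cortex set.

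The members were shallow and varied in how many markers they showed. Their median was 1092.5 UMIs (500 to 8651) and 566.5 genes, and 109 of the 252 held under 1000 UMIs. At the threshold of the rule, 202 members had exactly 2 of the 3 markers and 50 had all 3, while 481 barcodes that met every other condition had 1 marker and lay just outside. Most members were found through axo (239 of 252) and CG9657 (194), and 121 had Eaat2. Nearly all had nrv2 (248), a subunit of the sodium pump, and 80 had repo, the transcription factor of glia.

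Each marker was also read in the members that the other pair of markers had chosen, so that its own detection played no part. Among members with CG9657 and Eaat2, axo was at 2596, 2624 and 2729 CPM in the tau KI libraries and at 1826, 2003 and 2202 CPM in the controls, and the groups did not overlap. Among members with axo and Eaat2, CG9657 was at 476, 621 and 819 CPM in tau KI and at 769, 917 and 521 CPM in controls. Among members with axo and CG9657, Eaat2 was at 352, 250.9 and 195 CPM in tau KI and at 250.99, 258 and 194 CPM in controls. These last 2 markers overlapped between genotypes, and the axo values rest on as few as 10 UMIs in tau KI replicate 3. Over all members axo lay the other way in the fitted libraries, at 2119, 2284 and 3505 CPM in tau KI and 3327, 2403 and 2560.4 CPM in controls (log2 fold change -0.20, SE 0.31, edgeR adjusted p = 0.883), with replicates 1 and 2 of tau KI below and replicate 3 above every control. No direction for axo is therefore drawn from either reading.

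The first comparison asked whether ensheathing glia made up a different part of the barcodes in the knock-in. They were 63, 60 and 6 barcodes in the tau KI libraries, which was 0.209% (95% exact interval 0.160 to 0.267), 0.152% (0.116 to 0.195) and 0.0748% (0.0274 to 0.163) of the barcodes that passed the limits. They were 22, 78 and 23 barcodes in the controls, or 0.257% (0.161 to 0.388), 0.284% (0.225 to 0.355) and 0.325% (0.206 to 0.487). The intervals cover counting error alone. The highest tau KI library lay below the lowest control library.

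The mean share was 0.145 ± 0.0671% in tau KI and 0.289 ± 0.0343% in controls (SD, n = 3 each), a ratio of 0.503 and a difference of -0.143 percentage points. The two-sided exact permutation p was 0.1, the smallest that 3 libraries against 3 can give, and it was 0.233 after Benjamini-Hochberg adjustment over 7 measures of number, so the difference did not pass the threshold of 0.05. Relative to all glial barcodes (repo or nrv2 detected, no nSyb and at most 1 UMI of elav), ensheathing glia were 6.20 ± 2.08% in tau KI and 11.7 ± 1.85% in controls (exact permutation p = 0.1, n = 3 each). Per barcode of the astrocyte set there were 0.797, 0.759 and 0.462 ensheathing glia in the tau KI libraries and 1.83, 2.44 and 1.35 in the controls, again without overlap (exact permutation p = 0.1, n = 3 each).

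Other classes overlapped between the genotypes. Glial barcodes were 2.33 ± 0.834% of all in tau KI and 2.51 ± 0.560% in controls (exact permutation p = 0.9, n = 3 each). The astrocyte set was 0.208 ± 0.0502% in tau KI and 0.166 ± 0.0656% in controls (exact permutation p = 0.4, n = 3 each), and the cortex set 0.0386 ± 0.0315% in tau KI and 0.0810 ± 0.0415% in controls (exact permutation p = 0.3, n = 3 each). The ratio for the cortex set, 0.476, was close to the 0.503 of ensheathing glia. Its share was 0.0232%, 0.0177% and 0.0748% in tau KI and 0.0467%, 0.0692% and 0.127% in controls. Only tau KI replicate 3, with 6 cortex barcodes, overlapped the controls. A class can hold fewer cells or cells with less RNA that fail the UMI minimum, and these cannot be told apart here. With every barcode thinned to 500 UMIs, ensheathing glia were 0.0890 ± 0.0460% in tau KI and 0.189 ± 0.0287% in controls (exact permutation p = 0.1, n = 3 each).

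The lower number depended on the mitochondrial limit. Barcodes that met the rule but held over 20% mitochondrial UMIs numbered 63, 30 and 23 in tau KI and 6, 40 and 15 in controls. With these included, the shares were 0.336%, 0.208% and 0.268% in the tau KI libraries and 0.307%, 0.380% and 0.478% in the controls, so tau KI replicate 1 lay above control replicate 1. The difference was then -0.118 percentage points (ratio 0.697, exact permutation p = 0.2, n = 3 each). Among members within the limit, the median mitochondrial share was 14.5%, 13.7% and 11.7% in tau KI and 11.7%, 12.5% and 10.9% in controls. Without tau KI replicate 3 the difference within the limit was -0.108 percentage points, a ratio of 0.625.

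**Figure D2:**
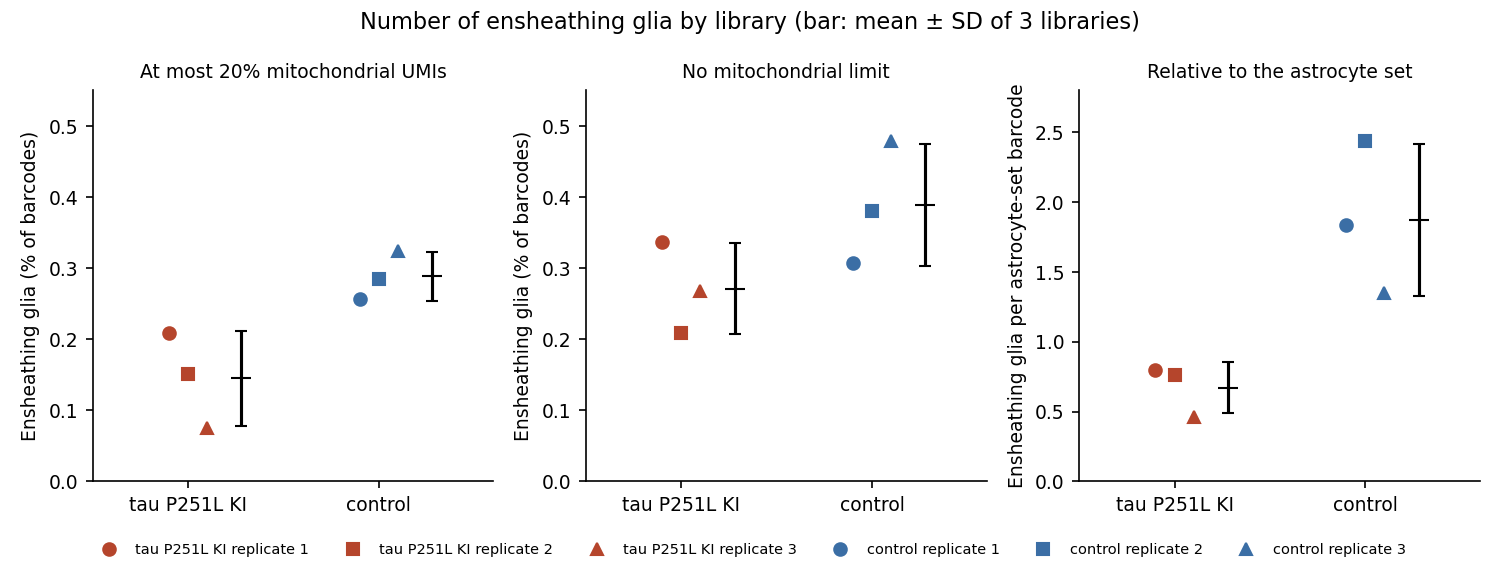
Ensheathing glia as a percentage of barcodes in each library with the mitochondrial limit (left) and without it (middle), and per astrocyte-set barcode (right), with tau KI and control libraries side by side and the mean ± SD of 3 libraries. The genotypes do not overlap in the left and right panels, and in the middle panel tau KI replicate 1 (0.336%) lies above control replicate 1 (0.307%).

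Depth and complexity of the members were also compared. The median member held 1390, 1047.5 and 1683.5 UMIs in the tau KI libraries and 901.5, 1052.5 and 966 UMIs in the controls, which overlapped. The median number of genes was 658 ± 99.02 in tau KI and 520.5 ± 20.2 in controls (exact permutation p = 0.1, n = 3 each). At an equal 500 UMIs it was 310 ± 3.00 genes in tau KI and 313.5 ± 11.3 in controls (exact permutation p = 0.8, n = 3 each), where the genotypes overlapped.

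The second comparison asked which transcripts differed within ensheathing glia. In the knock-in, CG8321, the UDP-glycosyltransferase gene Ugt35B1, the transporter gene List and yolk protein transcripts were lower. Transcripts of neurons such as Cbp53E, bru3 and brp, the gene Arc1 and the noncoding RNA lncRNA:CR40469 were higher. UMIs were summed over the members of each library and tested with edgeR's quasi-likelihood test. Tau KI replicate 3 was left out of the fit because 6 barcodes were fewer than the required 10, so every fold change below compares 2 tau KI libraries with 3 controls, and the value of the left-out library is given beside it. Of 1478 features tested, 54 passed a Benjamini-Hochberg adjusted p of 0.05 (3.65%). Of these, 37 were higher in tau KI (2.5%) and 17 lower (1.15%). The median log2 fold change over all tested features was 0.00, and 195 had an unadjusted p under 0.05. With all 6 libraries in the fit, 8 features were called, and DESeq2 called 13. The genes named above differed in how often alternatives kept their call. Among the decreases it was 14 of 16 for CG8321 and Yp3, 11 of 16 for Ugt35B1 and Yp2, 7 of 13 for Yp1 and 3 of 16 for List. Among the increases it was 11 of 12 for lncRNA:CR40469, 11 of 15 for Arc1, 7 of 13 for Cbp53E, 6 of 12 for bru3 and 6 of 15 for brp. Alternatives that gave a gene no adjusted p are not in its total. For lncRNA:CR40469 these were DESeq2, no mitochondrial limit, members without neuron markers and all 6 libraries. No alternative that held tau KI replicate 3 was therefore counted for it. Without tau KI replicate 1 or 2 there were 135 and 28 calls, and without control replicate 1, 2 or 3 there were 19, 7 and 8.

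The protein-coding gene CG8321 was called lower in 14 of 16 alternatives. CG8321 was at 36.4, 26.6 and 0 CPM in ensheathing glia of the tau KI libraries and at 555, 421 and 591 CPM in those of the controls, and every tau KI library, the left-out one included, lay below every control. Its log2 fold change was -3.80 (SE 0.54, edgeR adjusted p = 0.000471). CG8321 was among the genes already known from these libraries to be lower in glia as a whole, so its value here is not separate evidence. In the astrocyte and cortex sets together, which held 158 astrocyte and 14 cortex barcodes in the fitted tau KI libraries and 61 and 32 in the controls, it was at 36.6, 22.0 and 0 CPM in tau KI and 694, 448 and 263 CPM in controls (log2 fold change -3.72, SE 0.62, edgeR adjusted p = 0.0204). In the neuron set it was at 44.0, 35.2 and 42.4 CPM in tau KI and 49.0, 48.2 and 44.9 CPM in controls.

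Ugt35B1, List and CG42342 were among the other decreases. Ugt35B1, the gene with the highest ratio over other barcodes, was at 81.8, 133 and 1071 CPM in tau KI and 508, 542 and 900.4 CPM in controls, with a log2 fold change of -2.51 (SE 0.46, edgeR adjusted p = 0.00255). The left-out tau KI replicate 3 lay above every control for this gene, from 11 UMIs, so the decrease describes tau KI replicates 1 and 2 alone. The transporter gene List was at 455, 425 and 681 CPM in tau KI and 924, 1075 and 1435 CPM in controls (log2 fold change -1.28, SE 0.34, edgeR adjusted p = 0.0379), and all 3 tau KI libraries lay below the controls. CG42342 was at 236, 186 and 195 CPM in tau KI and 739, 851 and 732 CPM in controls (log2 fold change -1.77, SE 0.37, edgeR adjusted p = 0.0108), likewise without overlap. CG42342 was more abundant in the astrocyte set, at 3633 CPM, than in ensheathing glia, at 487 CPM. List and CG42342 fall outside the 10 largest decreases and were picked after their values were seen. List kept its call in only 3 of 16 alternatives, losing it with DESeq2 and with all 6 libraries among others, and CG42342 kept it in 10 of 16. Ugt35B1 stood highest in the cortex set and List was high there too. Cortex glia without a wrapper UMI could be among the members, and their part in these decreases was not tested.

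Further decreases were carried by few UMIs. The cytochrome P450 gene Cyp6a13 had 2 UMIs in the fitted tau KI libraries and 30 in the controls, a ratio of 0.0591 (exact 95% counting interval 0.00684 to 0.233). Its level in the left-out tau KI replicate 3, 292 CPM, lay within the control range. CG10361 had 3 UMIs in tau KI and 27 in controls (ratio 0.0984, 0.0191 to 0.320). CG31344 was at 81.8, 13.3 and 97.4 CPM in tau KI and 369.7, 327 and 281 CPM in controls (log2 fold change -2.50, SE 0.59, edgeR adjusted p = 0.0186). The transposable element insertion RR48361, which the Ensembl annotation assigns to the R2 family of ribosomal DNA, was at 109, 783 and 0 CPM in tau KI and 11969, 3937 and 2223 CPM in controls (log2 fold change -3.64, SE 0.65, edgeR adjusted p = 0.00247). Copies of this family are near-identical, so the counts of a single insertion are uncertain.

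Yolk protein transcripts and a few others that were more abundant in free RNA than in the glia made up a second group of decreases. Yp3, a yolk protein made in the fat body and ovary of females, was at 109, 239 and 0 CPM in tau KI ensheathing glia and 878, 2459 and 1463 CPM in controls (log2 fold change -3.21, SE 0.47, edgeR adjusted p = 0.000471). It kept its call in 14 of 16 alternatives. Yp1 (-2.03) and Yp2 (-2.45) also fell, although Yp1 in control replicate 1 (92.4 CPM) lay below the fitted tau KI libraries. CG2233 had 3 UMIs in the fitted tau KI libraries and 70 in the controls (ratio 0.0380, exact 95% counting interval 0.00764 to 0.116), the alkaline phosphatase gene phu had 1 in tau KI and 31 in controls (ratio 0.0286, 0.000701 to 0.171), and the chitinase-like gene Idgf6 had a log2 fold change of -2.99 (SE 0.70, edgeR adjusted p = 0.0186).

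These genes also differed in nearly empty barcodes, those with 20 to under 400 UMIs, whose counts were taken as RNA free in the suspension. Yp3 was there at 1204, 1210.4 and 46.2 CPM in tau KI and 11979.6, 10142 and 3767 CPM in controls, and CG2233 at 58.4, 225 and 3.48 CPM in tau KI and 3224, 1747 and 571 CPM in controls. For 6 of the 17 lower features (Yp1, Yp2, Yp3, CG2233, phu and Idgf6) free RNA of the controls held a higher level than the control members, while for CG8321 it was lower, at 63.3, 72.8 and 75.2 CPM. The same excess in control free RNA was found for 34 of the 37 higher features. It was not counted over all tested features, so it does not set the 6 apart. The summed level of 5 fat body genes, Yp1 among them, in free RNA was 619, 905 and 101 CPM in the tau KI libraries and 6574, 4241 and 1744 CPM in the controls. In ensheathing glia it was 1355, 1394 and 292 CPM in tau KI and 1202, 2048 and 1773 CPM in controls, with Fbp1 and Lsp2 at 0. The part of free RNA in these decreases was not tested. Over the 17 lower features, 16 were also lower in the free RNA of tau KI replicates 1 and 2 than of the controls, against 383 of all 1478 tested features (25.9%).

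**Figure D3:**
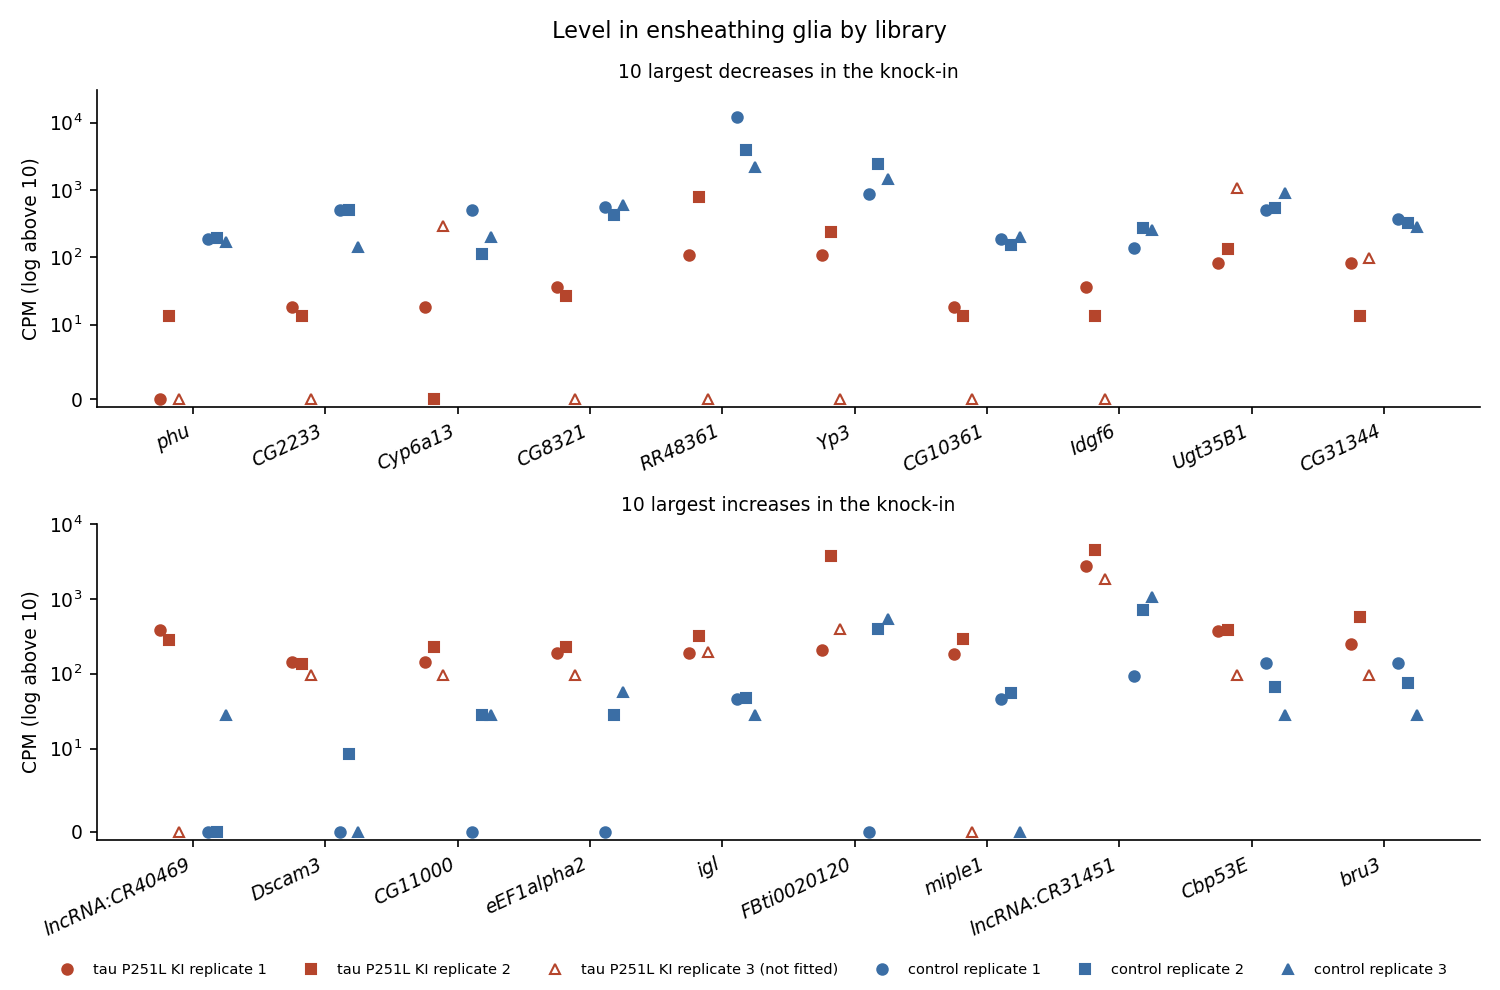
Level in CPM in ensheathing glia of each library for the features with the 10 largest called decreases (top) and 10 largest called increases (bottom), on an axis that is linear below 10 and logarithmic above, with tau KI to the left of control and the unfitted tau KI replicate 3 as an open triangle. The open triangle lies with the other tau KI libraries for CG8321, Yp3 and Dscam3, but with or above the controls for Cyp6a13, Ugt35B1 and lncRNA:CR40469.

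The increases were mostly transcripts that the neuron set held at higher levels than control ensheathing glia did. The largest was in lncRNA:CR40469, with 42, 21 and 0 UMIs in the tau KI libraries and 0, 0 and 1 in the controls, a ratio of 55.8 over the fitted libraries (exact 95% counting interval 9.66 to 2239). It was high in replicates 1 and 2 of tau KI in each class examined. In the neuron set its log2 fold change was 7.24 (SE 0.41, edgeR adjusted p = 0.000256), in the astrocyte and cortex sets 4.31 (SE 0.81, edgeR adjusted p = 0.0204), and in free RNA it was at 163, 235 and 2.97 CPM in tau KI and 0.153, 2.72 and 4.22 CPM in controls. In each of these, tau KI replicate 3 lay near the controls.

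Neuronal genes followed. Cbp53E, a calcium-binding protein of neurons, was at 373, 385 and 97.4 CPM in tau KI ensheathing glia and 139, 65.5 and 28.1 CPM in controls (log2 fold change 2.53, SE 0.52, edgeR adjusted p = 0.00921), with tau KI replicate 3 among the controls. lncRNA:CR31451 was at 2764, 4528 and 1849.7 CPM in tau KI and 92.4, 711 and 1069 CPM in controls, without overlap (log2 fold change 2.54, SE 0.45, edgeR adjusted p = 0.00247). The RNA-binding protein gene bru3 had a log2 fold change of 2.51, the calmodulin-binding protein gene igl 2.61, the growth factor gene miple1 2.55 and eEF1alpha2, a copy of the translation elongation factor, 2.77, all between 0.0132 and 0.0379 in adjusted p by edgeR. Dscam3, a cell adhesion receptor, had 26 UMIs in the fitted tau KI libraries and 1 in the controls (ratio 23.0, exact 95% counting interval 3.78 to 944), and CG11000 a log2 fold change of 2.93. The jockey insertion FBti0020120 (2.57) was at 209, 3731 and 389 CPM in tau KI and 0, 393 and 535 CPM in controls. It was the only one of the 37 increases that overlapped over the 5 fitted libraries, and its near-identical copies make its counts uncertain.

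Among increases outside the 10 largest, picked after their values were seen, were synaptic genes and Arc1. The active zone genes brp (1.75), Rim (1.86) and unc-13 (1.21), the amyloid precursor-like gene Appl (2.04), the calmodulin gene Cam (1.72), the neuronal RNA-binding gene fne (1.91), the acetylcholine receptor gene nAChRalpha6 (1.70) and nrv3, the sodium pump subunit of neurons (1.64), passed the threshold. Arc1, an activity-regulated gene whose protein forms capsids, was at 1855, 797 and 487 CPM in tau KI and 416, 215 and 366 CPM in controls, without overlap (log2 fold change 2.23, SE 0.40, edgeR adjusted p = 0.00247). With the deepest 10% of members left out, the log2 fold change of Arc1 was 1.14 and did not pass (edgeR adjusted p = 0.128). Arc1 was lower in the neuron set than in ensheathing glia of the same library, at 105, 288 and 87.5 CPM in tau KI and 219, 106 and 100.02 CPM in controls. In free RNA Arc1 was at 893, 1439 and 813 CPM in tau KI and 1985, 872 and 1008 CPM in controls, where the genotypes overlapped. The heat shock RNA lncRNA:Hsromega was at 6956, 9588 and 876 CPM in tau KI and 2865, 3021 and 3545 CPM in controls (edgeR adjusted p = 0.0081), with tau KI replicate 3 below every control.

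Levels did not overlap over the 5 fitted libraries for 36 of the 37 increases and 16 of the 17 decreases. With tau KI replicate 3 added, 12 of the 37 increases and 13 of the 17 decreases stayed without overlap. Over the 5 fitted libraries, higher and lower levels without overlap were found for 11.9% and 17% of all features. The share over all features was not counted with replicate 3. The calls come from the same contrast. Counted over the 37 increases, 34 were higher in the neuron set than in control ensheathing glia, and 30 were over 5 times as high. Over all 1478 tested features this held for 629 (42.6%) and 106 (7.17%). Low levels in control members also helped these features to be called higher, so the 2 counts are partly set by the choice. How large that part is was not tested. Free RNA was higher in tau KI for 36 of the 37, and for 1095 of all 1478 tested features (74.1%). In the neuron set itself, where 0.454% of features were called higher, 1 of the 37 was. In the astrocyte and cortex sets, where 2.4% of features were called higher, 30 of the 37 were tested and 13 were. These sets share the libraries and their free RNA with the ensheathing glia.

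The neuronal signal in the members differed between libraries. The summed level of 10 neuron markers outside the rule was 1946 (95% exact interval 1694 to 2225), 4595 (4123 to 5105) and 1363 (745 to 2287) CPM in tau KI ensheathing glia. It was 555 (287 to 969), 1646 (1412 to 1908) and 929 (639 to 1304) CPM in controls. Tau KI replicates 1 and 2 lay above every control, and replicate 3, with 14 UMIs of these markers, lay within the control range. In free RNA the same sum was 4421, 4926 and 2428 CPM in tau KI and 2361, 3924 and 3396 CPM in controls. The nearly empty barcodes held on average 284, 283 and 149 UMIs in tau KI and 95.3, 234 and 135 UMIs in controls, and libraries with more UMIs there had more neuron markers in their members, apart from tau KI replicates 1 and 2. The neuron set held 12156 to 13794 CPM in all 6 libraries. Nearly empty barcodes held the most UMIs in tau KI replicates 1 and 2, so their depth and the genotype cannot be told apart in the fitted libraries. The part of free RNA in the increases was not tested.

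**Figure D4:**
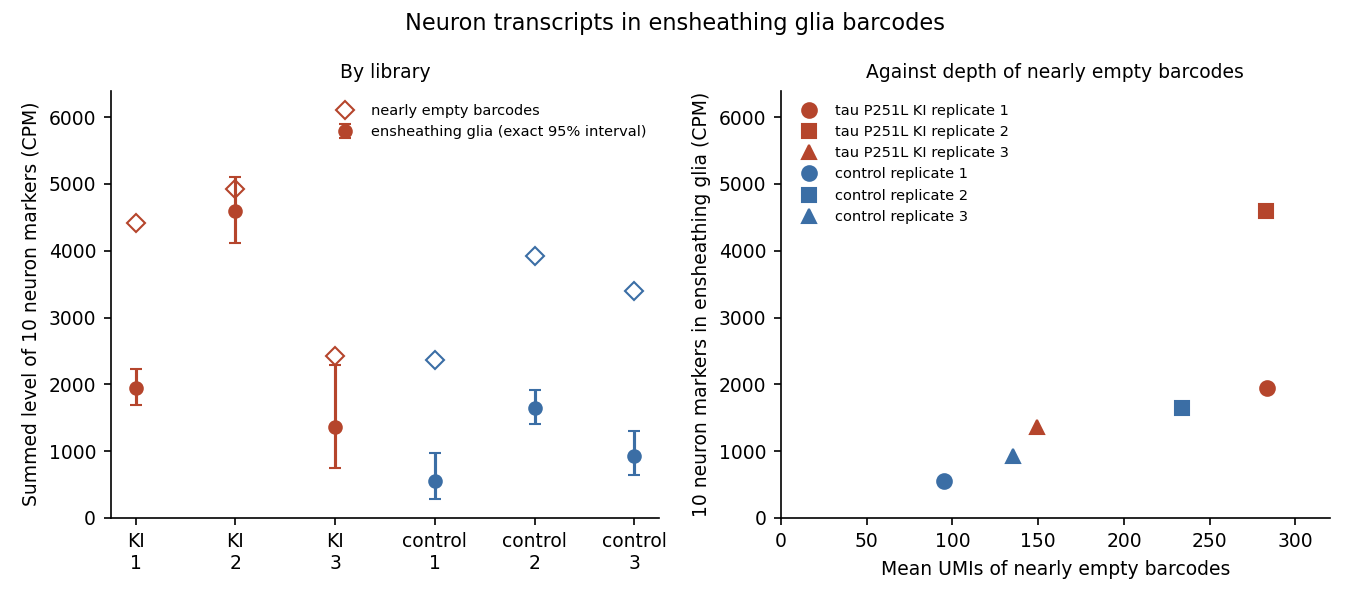
Summed level of 10 neuron markers in ensheathing glia (filled, exact 95% counting interval) and in nearly empty barcodes (open) of each library, and the same member level against the mean UMIs of nearly empty barcodes. Tau KI replicate 2 stands highest at 4595 CPM, and control replicate 1, with the emptiest droplets (95.3 UMIs), lowest at 555 CPM.

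Members without any UMI of these 10 markers were 21 of 129 in tau KI and 63 of 123 in controls, counts that also move with depth. A fit restricted to them covered 557 features in 4 libraries, the controls and tau KI replicate 1, which had 12 such members. Tau KI replicates 2 and 3 had 7 and 2, under the required 10. With 1 tau KI library in this fit, only effect sizes are given. Only 8 of the 37 increases were tested there, with a median log2 fold change of 0.22 and 6 in the same direction. Of the 17 decreases, 12 were tested, all in the same direction, with a median of -2.40.

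Gene groups tied to the work of ensheathing glia were then read as lists. For transmitter uptake and recycling, 7 of 12 genes could be tested and none passed, with a median log2 fold change of -0.23 against 0.00 over all features. The 7 include the markers CG9657 and Eaat2, whose levels were partly set by the choice of members. Gs2, the glutamine synthetase of glia, was at 3292, 2722 and 3310.0 CPM in tau KI and 2634, 3535 and 4277 CPM in controls (log2 fold change -0.12, SE 0.32, edgeR adjusted p = 0.936). The glutamate transporter gene Eaat1 was at 318, 332 and 779 CPM in tau KI and 970.5, 524 and 985 CPM in controls (log2 fold change -1.16, SE 0.38, edgeR adjusted p = 0.114). The genotypes overlapped for Gs2, and for Eaat1 tau KI replicate 3 lay within the control range.

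For engulfment, 10 of 22 genes could be tested and none passed (median 0.08). The receptor gene drpr was at 100.03, 252 and 389 CPM in tau KI and 139, 159 and 309.5 CPM in controls (log2 fold change -0.13, SE 0.54, edgeR adjusted p = 0.966), the adaptor gene ced-6 at 573, 584 and 487 CPM in tau KI and 1109, 608 and 506 CPM in controls (-0.17, SE 0.36, edgeR adjusted p = 0.911), and the matrix protease gene Mmp1 at 309, 239 and 195 CPM in tau KI and 555, 243 and 113 CPM in controls (0.13, SE 0.47, edgeR adjusted p = 0.958). The genotypes overlapped for all 3. Their standard errors lay between 0.36 and 0.54 on the log2 scale, which limits what this depth can show.

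The metabolic and stress lists gave no calls either. Lipid handling had 6 of 18 genes tested and none called (median -0.40), with the lipid droplet gene Lsd-2 at 737, 810.0 and 389 CPM in tau KI and 2126, 1552 and 1041 CPM in controls (log2 fold change -0.89, SE 0.34, edgeR adjusted p = 0.207) and the sterol carrier gene Npc2a at 537, 412 and 584 CPM in tau KI and 1340.2, 832 and 788 CPM in controls (-0.89, SE 0.35, edgeR adjusted p = 0.219). Each tau KI library lay below each control for both genes. Sugar and lactate metabolism had 12 of 18 tested and none called (median -0.18). Redox and stress genes had 13 of 20 tested and none called (median -0.27). In that list GstD1, a glutathione S-transferase, was at 482, 305 and 97.4 CPM in tau KI and 1017, 1132 and 759.7 CPM in controls, without overlap (log2 fold change -1.20, SE 0.36, edgeR adjusted p = 0.0697). Of 18 innate immunity genes only 1 could be tested.

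Junction, adhesion and ion transport genes had 12 of 21 tested and 1 called, nrv3, with a median of -0.02. The gap junction genes Inx2 (0.01) and ogre (-0.40), the potassium channel gene Irk2 (-0.82), the sodium pump gene Atpalpha (0.04) and the subunit gene nrv2 (-0.11) did not pass in edgeR (adjusted p of 0.333 or more). The level of nrv2 was partly set by the rule, which used this gene. Of the 12 listed neuron markers, 6 could be tested and 1 passed (brp), and all 6 had a positive log2 fold change (median 1.20). Of 88 cytosolic ribosomal protein genes 78 could be tested and none passed (median -0.27, 12 positive), and of 13 mitochondrially encoded genes 12 could be tested and none passed (median 0.24).

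**Figure D5:**
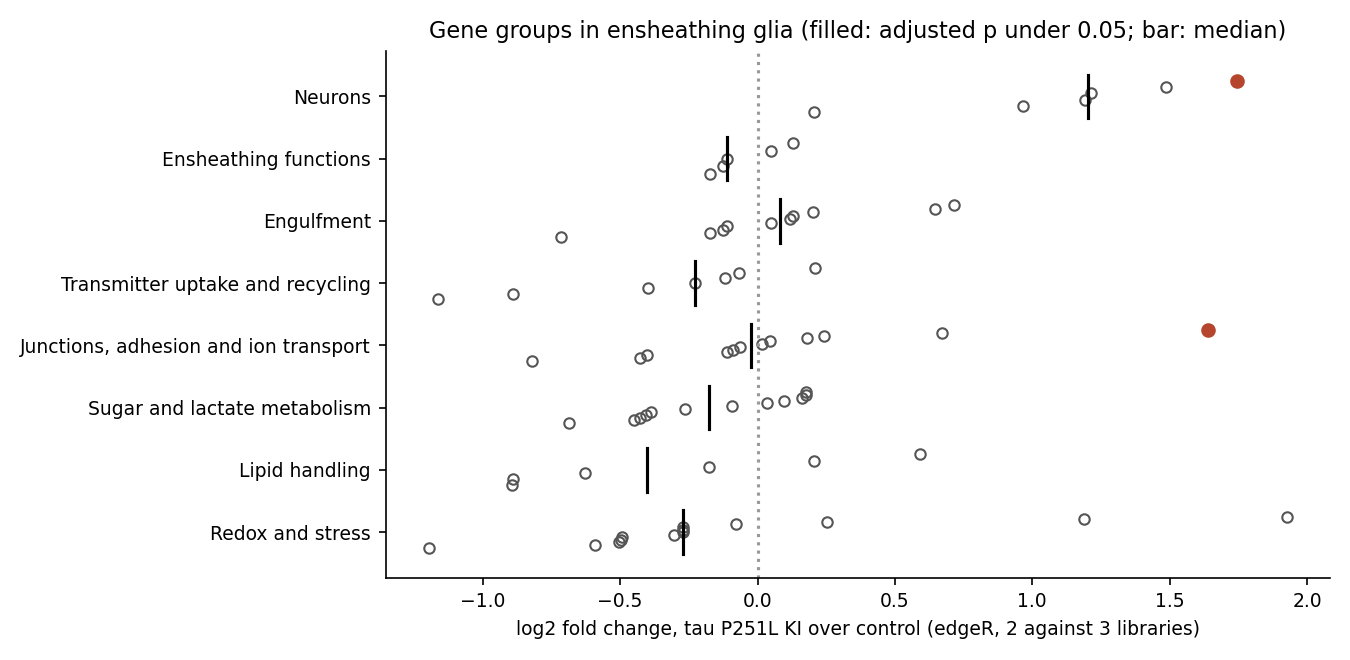
Log2 fold change of tau KI over control in ensheathing glia for the tested genes of 8 lists, from edgeR with 2 against 3 libraries, with a bar at each list's median and a dotted line at the median of all 1478 features. The 2 filled points are brp among neurons and nrv3 among junction and transport genes, and the neuron list lies to the right with a median of 1.20.

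The targeted gene and genes already known to differ in these libraries were read in the same way. The gene tau was at 246, 266 and 97.4 CPM in tau KI ensheathing glia and 185, 271 and 253 CPM in controls (log2 fold change 0.13, SE 0.42, edgeR adjusted p = 0.951), and UMI counts do not show the amino acid change. Neither mthl8 nor CG15547 had a UMI in any member. CG6912 had 4 UMIs and asRNA:CR45600 had 6 in the control members and none in the 129 tau KI members, too few for a test.

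The last comparison asked whether the genotype effect in ensheathing glia differed from that in other classes, with the library as a block and the same 5 libraries. Against the neuron set, 14 of 8279 features passed in edgeR (0.169%), 8 with a higher and 6 with a lower effect in ensheathing glia. The median interaction over all features was 0.31 on the log2 scale with TMM scaling and 0.11 with relative log expression (RLE) scaling, both in edgeR. Single values are to be read against that shift. CG8321 had an interaction of -3.39 (SE 0.71, edgeR adjusted p = 0.00413). Fhos, an actin-organizing formin, had an interaction of -2.94 (SE 0.58, edgeR adjusted p = 0.00178). Fhos was at 200.1, 239 and 0 CPM in tau KI ensheathing glia and 323, 346 and 141 CPM in controls, while in the neuron set it was at 51.5, 75.3 and 7.33 CPM in tau KI and 8.48, 8.25 and 8.49 CPM in controls, so it was the fitted tau KI neuron sets that stood high. In tau KI replicate 3 the neuron set lay below the controls.

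Against the astrocyte and cortex sets together, 2 of 1655 features passed (0.121%). CG9686 was at 1628, 1062 and 1363 CPM in tau KI ensheathing glia and 2911, 1824 and 1379 CPM in controls, with overlap, and in the other glia at 284, 231 and 2559.8 CPM in tau KI and 3916, 1072 and 3222 CPM in controls (interaction 2.67, SE 0.48, edgeR adjusted p = 0.0111). CG42342 fell in ensheathing glia (-1.77), while in the other glia it was at 3540.4, 2713 and 1930.3 CPM in tau KI and 2627, 2912 and 3007 CPM in controls (interaction -1.98, SE 0.41, edgeR adjusted p = 0.043). The make-up of the other glia moved with genotype: cortex barcodes were 8.14% of them in the fitted tau KI libraries, 31.6% in tau KI replicate 3 and 34.4% in the fitted controls. CG9686 was at 149 CPM in the astrocyte set and 4787 CPM in the cortex set, and CG42342 at 3633 CPM in the astrocyte set and 569.6 CPM in the cortex set. The part of this mix in either interaction was not tested. Neither interaction passed with RLE scaling in edgeR or with all 6 libraries. For CG8321 the interaction with other glia was -0.10.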

How the data were processed

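The deposited matrices hold raw counts of UMIs per feature and barcode, one matrix per library, with 22064 features and no filter to cells. Per the file headers they were written by Cell Ranger 4, while the submitters' processing notes name Cell Ranger 6.0. The genome build, the annotation and use of strand are not given in the sources used here, so overlapping and antisense genes cannot be told apart, and reads of near-identical copies are uncertain.

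From these counts, barcodes were chosen by the rule given in the text, with no doublet caller. Leaving out the deepest 10% of members served as an alternative. Members and gene lists were chosen with earlier results of these data known. UMIs were summed over members per library, and libraries with under 10 members or 5000 UMIs were left out of fits. Sums were tested with edgeR 4.0.16 (R 4.3.3; quasi-likelihood, TMM, filterByExpr, two-sided, Benjamini-Hochberg threshold 0.05), with DESeq2 1.42.0 as an alternative. Differences between classes were tested as interactions with the library as a block. Shares were compared with exact permutation tests (scipy 1.17.1), and exact 95% intervals cover counting error only. CPM are UMIs per 1000000 UMIs of the summed barcodes.

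In simulated data made for the fit within ensheathing glia (1280 genes), 89.7% of 4-fold and 97.8% of 8-fold changes were recovered, and 6.25% of calls were false. The simulation drew independent counts around a common profile with the dispersions of the fit. It held no differences in free RNA or cell mix between libraries, so these rates need not hold for the real data. Named genes are the 10 largest called increases and decreases, up to 10 interactions per comparison, the 30 highest ratios over other barcodes, and the listed genes. Alternatives covered the UMI and mitochondrial limits, the marker rule, scaling, filters and single libraries.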

Additional observations from a re-analysis of the deposited data

Results flagged for a closer look

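The genotype effect differed between ensheathing glia and another class by the edgeR interaction test for 14 features against the neuron set, 10 of them named by the rule, and for 2 against the astrocyte and cortex sets. These 12 are given as log2 values of the effect in ensheathing glia minus the effect in the other class. Against the neuron set, the lower effects were -9.75 for ITP, a neuropeptide gene, -2.94 for Fhos, -3.93 for the insertion FBti0063565, -3.39 for CG8321 and -2.18 for CG43693. ITP was at 198, 614 and 0.870 CPM in the neuron set of tau KI and 2.59, 2.39 and 7.14 CPM in that of the controls, and had 1 UMI in the fitted tau KI ensheathing glia and 9 in the controls (ratio 0.0984, exact 95% counting interval 0.00225 to 0.710). ITP was therefore high in the neuron sets of tau KI replicates 1 and 2 and not in replicate 3.

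The higher effects against the neuron set were 13.46 for CG34384, 2.87 for Cbp53E, 3.14 for the synapsin gene Syn, 4.59 for Dscam3 and 2.56 for dysc. CG34384 had 21 UMIs in the fitted tau KI ensheathing glia and 0 in the controls, which is at least 6.20-fold higher when the controls are set to 3 counts, the floor used for the group. The fitted values of ITP, CG34384 and Dscam3 rest on counts near 0 and are no bounds. Against the astrocyte and cortex sets, whose mix differed between the genotypes, the values were 2.67 for CG9686 and -1.98 for CG42342. None of these 10 interactions with neurons kept its call in all 8 alternatives. Fhos and ITP kept it in 7, CG8321 and FBti0063565 in 6, and Dscam3 in 2.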

How the results depend on the processing

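The lower share of ensheathing glia kept its direction in all 18 alternatives run. The difference lay between -0.175 and -0.108 percentage points when 1 library was left out, was -0.107 (exact permutation p = 0.2) with up to 30% mitochondrial UMIs, and was -0.0202 (exact permutation p = 0.3) with all 3 markers required. With members chosen by 1 pair of markers, the groups did not overlap for axo with CG9657 and overlapped for the other two pairs.

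The 54 calls within ensheathing glia became 13 with DESeq2, which gave no adjusted p for 10 of the 54. They became 21 with a depth minimum set per library and 8 with all 6 libraries. All calls of these fits were among the 54. Members with no UMI of 10 neuron markers gave 10 calls and the 3 deepest libraries 22, not all of them among the 54. The first of these fits held 1 tau KI library and the second 1 control library, so their counts are not read as calls kept. With at least 1000 UMIs per member there were 0 calls in edgeR, with 110 features at an unadjusted p under 0.05 and control replicate 1 left out. With no mitochondrial limit there was 1, CG8321. Without 1 library the count lay between 7 and 135. The depth minimum, the marker pairs, the mitochondrial limits of 30% and none, the neuron markers, all 6 and the 3 deepest libraries were alternatives chosen after seeing the data. Of the 54 called features and the 12 interactions named, 2 changed direction in an alternative where they were tested: FBti0020120, which was -0.26 among members without neuron markers and -0.68 to 3.52 without 1 library (lowest without tau KI replicate 2), and unc-13, which was -0.12 among members without neuron markers. Other genes were not followed through the alternatives. A fit requiring all 3 markers was not run, since only 2 libraries met the minimum.

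Interactions with neurons numbered 14, against 60 with RLE scaling in edgeR, 5 with all 6 libraries and 3 to 35 without 1 control library. With only all-zero features left out there were 13 (6 higher, 7 lower, against 8 and 6). Interactions with other glia numbered 2, against 0 with RLE scaling in edgeR and 4 with only all-zero features left out. There were 0 with all 6 libraries and 0 to 9 without 1 control library.

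Samples of the 2 genotypes share only replicate numbers. With the replicate number as a block there were 58 calls, 44 of them among the 54. Deviations from the group mean correlated at 0.12 and 0.10 for the 2 same-numbered pairs in the fit. With 2 tau KI libraries these deviations are mirror images, so the crossed pairs gave -0.12 and -0.10. The values therefore cannot show whether the replicate numbers pair the libraries.

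Depth limits these results. Tau KI replicate 3 gave 6 members, and a median member 1092.5 UMIs.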

Other observations

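Lists of other cell types gave low values in the members. Photoreceptor genes (ninaE, Arr2, trp and Rh2) summed to 473, 53.1 and 0 CPM in tau KI ensheathing glia and to 0, 9.35 and 0 CPM in controls. In free RNA they summed to 271, 137 and 92.8 CPM in tau KI and 130, 223 and 136 CPM in controls, so tau KI replicate 1 was the only library whose members lay above its free RNA. The 3 Kenyon cell genes summed to 63.7, 106 and 0 CPM in tau KI and to 0 CPM in each control. The 5 hemocyte genes summed to 27.3, 26.6 and 0 CPM in tau KI and 0, 56.1 and 56.3 CPM in controls. None of the genes in these 3 lists passed the filter on low counts. Of 47 proteasome genes 2 passed the filter and neither was called.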
